A study of Mus musculus with 14 samples.

Results

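The genomic neighbourhoods of Satb1, Bach2, Bcl11b and Sox4 were examined for chromatin accessibility in regulatory T (Treg) cells. A window of the deposited table was assigned to a gene when the start site of that gene was the nearest protein-coding start site to the centre of the window, within 1 Mb. This gave 271 windows for Satb1, 193 for Bach2, 129 for Bcl11b and 203 for Sox4, together 796 of the 240778 windows. The rule used position only and no measured value. Accessibility was measured by ATAC-seq, in which a transposase cuts open chromatin and leaves sequencing adapters there, and each window spans a peak summit. All mice carried the Foxp3-AID allele, which encodes Foxp3 joined to an auxin-inducible degron, with a ZsGreen reporter and Cre recombinase, and all received 5-ph-IAA for 3 or 7 days by the labels. R26TIR1(F74G) mice also carried the plant receptor TIR1(F74G) with mCherry at ROSA26, silent until Cre removes a STOP cassette, so that 5-ph-IAA leads to degradation of Foxp3 in their Treg cells, and R26WT mice lacked the receptor and served as controls. There were 4 R26WT and 4 R26TIR1(F74G) mice on day 3 and 3 and 3 on day 7, and the cells came from spleen and lymph nodes. By the study's methods, Treg cells were sorted as ZsGreen+ and, from R26TIR1(F74G) mice, also as mCherry+, so the sort differed between the genotypes. The labels give neither an activation state nor the sex or age of the mice. The study describes its day 7 accessibility samples as resting and activated Treg cells, sorted apart, from females with 1 AID and 1 wild-type Foxp3 allele, in which other Treg cells keep an intact Foxp3. Which libraries, if any, were resting or activated cells is not given by the labels, and the libraries were grouped by label alone.

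The proteins encoded here are transcription factors that act widely in T cells. Satb1 is a chromatin organiser that binds AT-rich DNA and is needed early in Treg cell development. Bach2 is a basic leucine zipper repressor that holds T cells in a resting state, partly by occupying sites that AP-1 factors also bind. Bcl11b is a zinc finger factor that commits thymocytes to the T lineage and maintains T cell identity, and Sox4 is an HMG-box factor used by early progenitors and by some differentiated T cells. Genes of this kind often lie in stretches with few other genes, where distant elements control their transcription.

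The Sox4 and Satb1 promoters are shown first because counted windows lay in them, at Sox4 the highest window of the gene and at Satb1 a separate window for each of several start sites. The RefSeq promoters listed for Bach2 and Bcl11b held no window and are not printed. They belong to start sites inside the genes (32417435 for Bach2 and 108003414 for Bcl11b). The outermost start sites, used for these genes below, did have windows near them. The sequences are from RefSeq on GRCm38.p6, cover 250 bases before to 50 after a start site, and are printed 5′ to 3′ on the strand of the gene, which is the minus strand in each case. Capitals mark the bases inside a counted window, with the positions in the window names read as counted from 1.
Sox4, chr13:28953650-28953949, of which 202 bases lay in a window: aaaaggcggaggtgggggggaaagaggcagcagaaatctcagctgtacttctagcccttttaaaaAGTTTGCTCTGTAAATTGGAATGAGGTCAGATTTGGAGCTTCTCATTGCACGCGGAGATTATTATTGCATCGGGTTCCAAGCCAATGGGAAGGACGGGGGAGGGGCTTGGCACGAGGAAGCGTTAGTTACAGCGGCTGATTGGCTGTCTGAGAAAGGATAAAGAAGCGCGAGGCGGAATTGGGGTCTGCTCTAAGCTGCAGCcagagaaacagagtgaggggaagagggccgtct
Satb1, outermost start site (51833290), chr17:51833241-51833540, 74 bases in a window: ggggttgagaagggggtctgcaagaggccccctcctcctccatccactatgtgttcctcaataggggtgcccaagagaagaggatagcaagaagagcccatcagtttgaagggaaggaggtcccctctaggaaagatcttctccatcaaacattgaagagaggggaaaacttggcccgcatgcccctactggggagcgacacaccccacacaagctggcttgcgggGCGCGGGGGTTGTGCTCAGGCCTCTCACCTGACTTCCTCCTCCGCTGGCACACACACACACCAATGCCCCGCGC
Satb1, start site 51832647, chr17:51832598-51832897, 126 bases in a window: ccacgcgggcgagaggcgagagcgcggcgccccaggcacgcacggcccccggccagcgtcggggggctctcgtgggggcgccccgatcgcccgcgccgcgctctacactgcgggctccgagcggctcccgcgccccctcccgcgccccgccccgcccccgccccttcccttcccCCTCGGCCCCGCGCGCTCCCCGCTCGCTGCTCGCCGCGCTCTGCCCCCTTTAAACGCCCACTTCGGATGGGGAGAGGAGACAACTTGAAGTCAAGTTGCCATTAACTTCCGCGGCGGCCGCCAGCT
Satb1, start site 51826588, chr17:51826539-51826838, 202 bases in a window: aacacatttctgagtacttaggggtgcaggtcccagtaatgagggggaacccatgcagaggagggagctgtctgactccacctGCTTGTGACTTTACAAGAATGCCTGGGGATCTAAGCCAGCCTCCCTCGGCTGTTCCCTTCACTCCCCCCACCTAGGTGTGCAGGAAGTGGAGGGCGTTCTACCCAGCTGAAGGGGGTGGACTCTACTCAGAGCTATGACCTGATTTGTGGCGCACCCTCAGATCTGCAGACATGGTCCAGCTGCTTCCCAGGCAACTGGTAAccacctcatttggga
Satb1, start site 51812184, chr17:51812135-51812434, 94 bases in a window: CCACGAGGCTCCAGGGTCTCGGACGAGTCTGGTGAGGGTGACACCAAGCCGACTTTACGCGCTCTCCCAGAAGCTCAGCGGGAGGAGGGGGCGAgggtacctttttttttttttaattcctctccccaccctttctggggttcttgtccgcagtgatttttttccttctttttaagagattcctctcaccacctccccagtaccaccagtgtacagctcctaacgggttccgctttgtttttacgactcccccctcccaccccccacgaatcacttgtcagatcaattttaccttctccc

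The Satb1 start sites differed in base composition. G and C made up 59.0% of the outermost promoter, which held 8 CG dinucleotides, and 76.7% of the second, which held 45, more than 98.1% of the 32851 mouse promoters of the same length have. The third held 3 CG dinucleotides and the fourth 13, and the median over all promoters was 7. Mean CPM (counts scaled to library size) was lower at each further start site along the gene, from 25.4 at the outermost to 15.9, 8.38 and 4.197 at the others printed. These windows cover different parts of their promoters, so the order of the levels is that of the windows. The Sox4 promoter was 52.0% G and C, close to the median promoter (52.7%).

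Letters of 9 common motifs were searched on both strands of these promoters. A GC box (GGGCGG), found in 35.7% of all promoters, occurred at 3 positions in the second Satb1 promoter and in none of the others printed. A CCAAT box (CCAAT), found in 37.4%, occurred at 4 positions in the Sox4 promoter and at 1 in the outermost Satb1 promoter. No match was found in the printed promoters for the TATA box (TATAAA, in 13.6% of all promoters), a forkhead motif (TGTTTAC, 3.65%), an ETS motif (CCGGAAG, 8.86%), a RUNX motif (TGTGGTT, 5.27%), a TCF/LEF motif (CTTTGAT, 3.73%), the core shared by AP-1 and Bach factors (TGANTCA, 7.81%) or a STAT motif (TTCNNNGAA, 8.30%). A match is a run of letters and not a measured binding site, and the letters of the more distant windows were not analysed here.

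Depth was sufficient for the promoters and shallow for most distant windows. Counts in windows ranged from 5653289 to 20184487 per mouse, the shallowest being replicate 1 among R26TIR1(F74G) mice on day 3 and replicate 3 among R26WT mice on day 7 (6348754). A start-site window of the 4 genes had a mean of 339 to 432 counts per library, whereas 238 of the 796 windows averaged at least 50. Libraries of a group differed by more than counting error (chi-square per degree of freedom 1.62 to 2.46 over the 18 pairs), and none were identical. In the start-site windows of defining genes, the 5 T cell markers had 4.55 (Cd4) to 16.6 CPM (Cd5), and 4 of the 6 Treg cell markers had 3.20 (Ikzf4) to 15.2 CPM (Ctla4), the others having no such window. Of the B cell markers, Cd79b and Ebf1 had 1.34 and 1.36 CPM and 6 had no window, and of the myeloid markers 3 had 1.12 to 1.57 CPM and 4 had none, against a median of 1.80 CPM over all windows. The CD8 T cell markers differed, with 1.33 CPM at Cd8a and 12.5 at Cd8b1, and neither NK cell marker had a window. The summed CD8 markers lay between 11.3 and 15.5 CPM in all mice, with overlapping genotypes on both days. The T cell markers summed to 53.1 to 61.1 CPM in R26WT and 37.6 to 54.5 in R26TIR1(F74G) mice on day 3. On day 7 they summed to 51.9 to 53.6 and 47.7 to 53.5. The Treg cell markers with a window summed to 45.0 to 51.1 and 38.5 to 50.2 CPM on day 3. On day 7 these sums were 46.8 to 51.9 and 42.6 to 47.5. For Foxp3 the nearest window lay 4338 bases from the start site, and degradation of the protein cannot be checked from accessibility. The 6 markers of resting Treg cells summed to 121.8 to 146 CPM in R26WT mice on day 3, 95.3 to 140 in R26TIR1(F74G) mice on day 3, 134 to 140 in R26WT mice on day 7 and 128 to 139 in R26TIR1(F74G) mice on day 7. The 7 markers of activated Treg cells with a window summed to 56.7 to 69.3, 53.3 to 62.3, 61.6 to 69.5 and 62.4 to 65.9 CPM in the same order. The part of the mix of resting and activated cells in the values below was not tested. In bulk libraries, fewer cells with an open window and less opening per cell cannot be told apart.

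All 4 genes were among those of the genome with the most assigned windows. These ranks count windows per gene and not windows per kb. They depend on the distance to the next protein-coding start sites, since each window goes to the nearest. These lay 652 and 769 kb from the start site of Satb1, 811 and 902 kb for Sox4, 275 and 364 kb for Bach2 and 893 and 175 kb for Bcl11b. Of 16311 genes with a window, at least as many windows as Satb1 had were found for 0.0368%, as Sox4 for 0.116%, as Bach2 for 0.129% and as Bcl11b for 0.448%, against a median of 8 windows per gene. Satb1 (chr17:51736187-51833290, minus strand) had windows from 384 kb upstream of the start site to 321 kb downstream, of which 55 lay in the gene body. Sox4 (chr13:28948919-28953699, minus strand), a gene of only 4.78 kb, had 6 windows in its body and 197 outside, 19 of these within the neighbouring gene Cdkal1, and they reached from 433 kb upstream to 403 kb downstream. Bcl11b (chr12:107910403-108004145, minus strand) had 7 windows upstream, 50 in the body and 72 downstream as far as 445 kb. With start sites of curated transcripts only, an assignment added after seeing the data, Bcl11b also took the windows of the predicted gene Gm52008 and held 243, of which 186 lay downstream, and 0.081% of genes had at least as many. The other genes then held 277 (Satb1), 225 (Bach2) and 203 (Sox4). Bach2 (chr4:32238413-32586109, plus strand) had 148 windows in its body and 45 upstream, and a further 68 windows in the body lay nearer to the start site of Gja10 and were therefore not counted for Bach2. Exons and introns were not distinguished, since only gene boundaries were used.

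A few windows of each gene stood well above the rest, although most of the summed level lay outside them. The mean CPM over 14 libraries ranged from 0.692 to 29.9 for Satb1, with a median of 1.96, from 0.687 to 29.5 for Bach2 (median 2.95), from 0.716 to 23.5 for Bcl11b (median 2.29) and from 0.678 to 29.5 for Sox4 (median 1.49), and the median of all windows was 1.80. Bach2 had 19 windows above 10 CPM, 9.84% of its windows, Sox4 10 (4.93%), Satb1 7 (2.58%) and Bcl11b 3 (2.33%), where the share of all windows was 8.91%. The 10 highest windows held 29.3% of the summed level of Sox4 and 19.4% of that of Satb1. Windows within 1 kb of the start site held 6.92% to 14.01% of the level of each gene, whereas over all genes such windows held 45.2%. Of the level of Sox4, 61.3% lay more than 100 kb from its start site, as did 43.3% for Satb1, 33.5% for Bcl11b and 28.7% for Bach2, against 8.03% over all genes. Of the windows themselves, 76.4%, 61.3%, 51.9% and 33.2% lay that far in the same order, against 15.9%. Within 1 kb lay 1.48% to 2.33% of the windows of each gene, against 19.7%. The shares of the level thus depend on the spacing of start sites through the assignment.

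**Figure D1:**
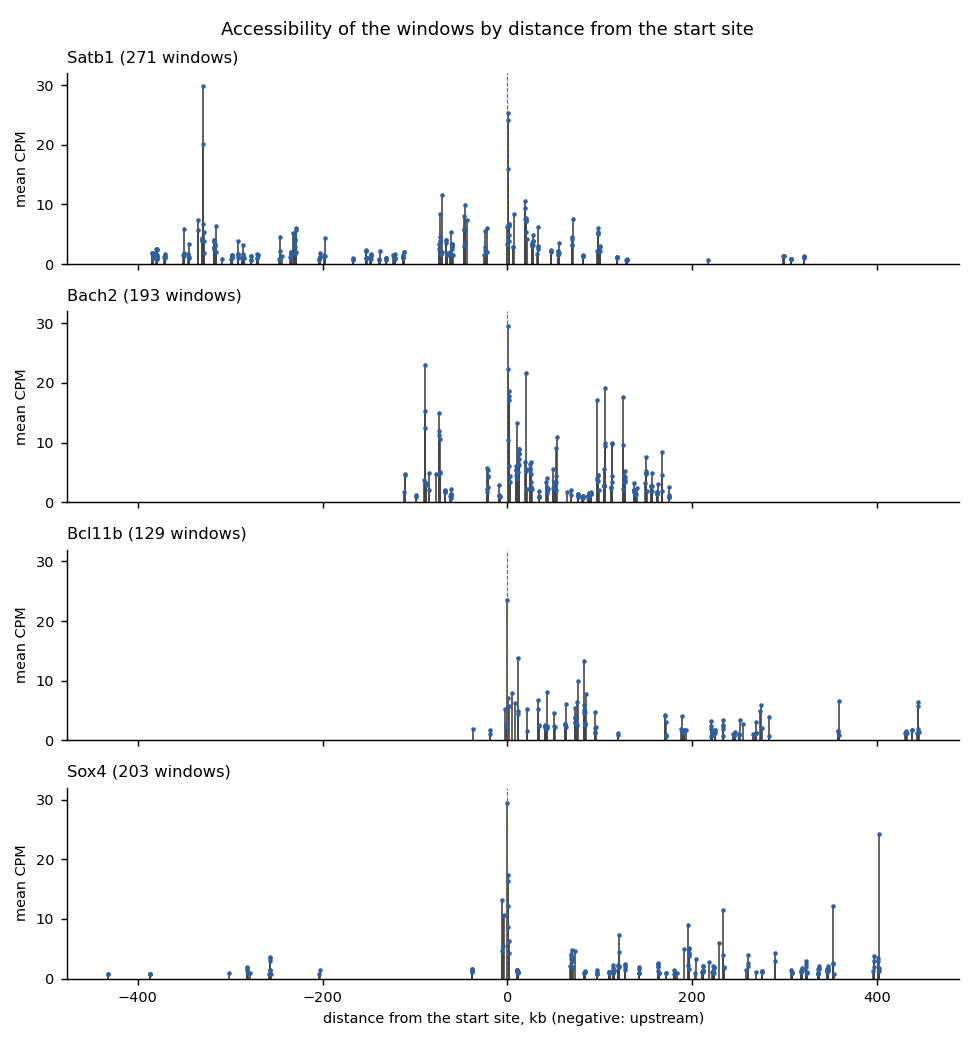
Mean CPM over 14 libraries of each window (vertical line with a point) against its distance from the start site in kb, upstream negative, in 1 panel per gene. The start site (dashed line) carries a window of 23.5 to 29.5 CPM in each panel, and windows of 29.9 CPM (Satb1, 329 kb upstream) and 24.3 CPM (Sox4, 402 kb downstream) stand apart at a distance.

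Averaged over its windows, Bach2 was the most accessible of the genes and Sox4 the least in all 14 libraries. Satb1 lay above Bcl11b in 8 libraries and below it in 6, so the order of these neighbours was not settled by the spread between mice. The mean CPM per window of Bach2 was 4.74, 4.72, 4.77 and 4.93 in the R26WT mice on day 3 and 5.02, 4.65, 4.05 and 4.37 in the R26TIR1(F74G) mice. On day 7 it was 5.03, 4.61 and 4.21 and 4.71, 4.65 and 4.73, respectively. The genotypes overlapped on both days, with means ± SD of 4.79 ± 0.097 (n = 4) and 4.52 ± 0.415 (n = 4) on day 3.

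For Bcl11b the corresponding values were 3.37, 3.25, 3.28 and 3.45 in R26WT and 3.36, 3.06, 2.84 and 3.04 in R26TIR1(F74G) mice on day 3. On day 7 they were 3.13, 3.11 and 3.14 and 3.09, 2.93 and 3.18. Replicates 2, 3 and 4 of the R26TIR1(F74G) mice on day 3 lay below every R26WT mouse of that day, while replicate 1, the shallowest library, lay among them. The mean over all windows also differed between mice. On day 3 it was 4.03, 4.17, 4.28 and 4.39 in R26WT and 4.22, 4.17, 3.89 and 4.03 in R26TIR1(F74G) mice. On day 7 it was 4.28, 4.23 and 3.95 and 4.16, 4.12 and 4.24. The part of such library-wide differences in the values of Bach2 and Bcl11b was not tested. Satb1 varied least, between 2.91 and 3.27 in all mice. Sox4 ranged from 2.37 to 2.65 in R26WT and from 2.58 to 2.86 in R26TIR1(F74G) mice on day 3, and from 2.55 to 2.74 and from 2.47 to 2.77 on day 7. No test was made on these averages.

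**Figure D2:**
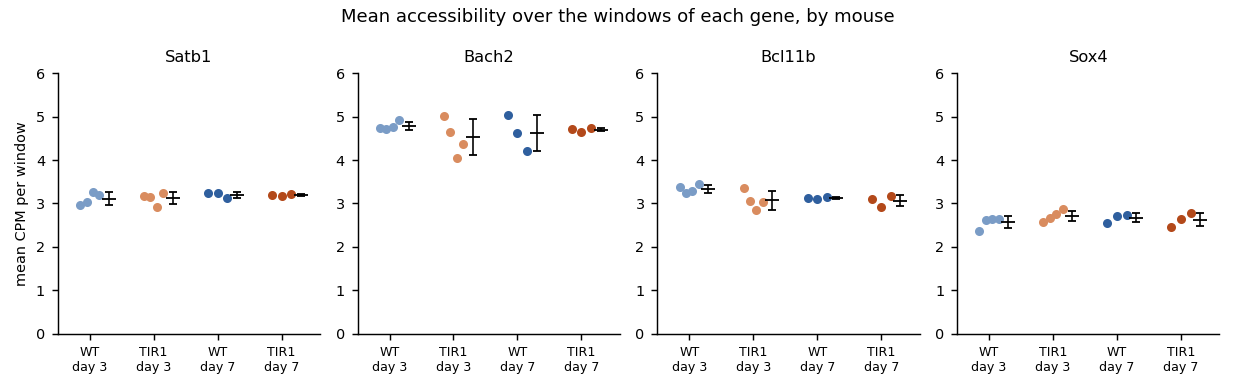
Mean CPM per window of each gene in each mouse (points) by genotype and day, with the mean and SD of each group (black bars) on an axis from 0. Bach2 lies above the other genes and Sox4 below them in every mouse, and the genotypes of a day overlap in each panel.

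At the outermost Satb1 start site, no difference between the genotypes was detected. The window nearest the start site (chr17:51833113-51833314, centre 77 bases inside the gene) had 24.5, 24.01, 28.3 and 28.1 CPM in R26WT mice on day 3 and 27.2, 25.6, 25.5 and 27.03 in R26TIR1(F74G) mice. On day 7 the values were 26.04, 23.5 and 22.6 in R26WT and 20.6, 27.1 and 25.6 in R26TIR1(F74G) mice. The groups overlapped on both days. By edgeR's quasi-likelihood test, the log2 fold change (R26TIR1(F74G) over R26WT) was 0.00 ± 0.12 (SE) on day 3 and 0.01 ± 0.13 (SE) on day 7 (adjusted p = 1.00 and adjusted p = 1.00). The 95% intervals of the fold ran from 0.85 to 1.18 and from 0.85 to 1.20. The intervals leave room for differences up to these bounds.

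The most accessible Satb1 window of all lay 329 kb upstream, in no gene (chr17:52162634-52162835), with a mean of 29.9 CPM that 1.84% of all windows exceeded. It had 28.8, 29.96, 32.2 and 31.7 CPM in R26WT mice and 35.6, 29.8, 24.1 and 30.3 in R26TIR1(F74G) mice on day 3. On day 7 it had 32.6, 29.2 and 24.3 and 27.9, 30.1 and 32.4. The genotypes overlapped on both days. The second window at the start site (chr17:51832899-51833100), the third in level, lay between 20.2 and 26.98 CPM in all mice.

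The Satb1 window with the smallest p on day 7 was a weak one, 309 kb upstream (chr17:52141761-52141962). It had 1.29, 1.98 and 1.35 CPM in R26WT and 0.642, 1.13 and 0.658 in R26TIR1(F74G) mice, which did not overlap. On day 3, 0.173, 0.728, 0.546 and 1.003 CPM in R26WT and 0.899, 0.805, 0.522 and 1.37 in R26TIR1(F74G) mice did overlap. The log2 fold change on day 7 was -0.97 ± 0.36 (SE) with adjusted p = 0.76, the smallest p of 270 windows, and the mean count of 13.5 per library leaves it close to the filter. On day 3 the smallest p belonged to a window 244 kb upstream (chr17:52076786-52076987), with 0.693, 0.529, 1.43 and 0.944 CPM in R26WT and 3.06, 1.66, 1.42 and 1.77 in R26TIR1(F74G) mice and a log2 fold change of 1.02 ± 0.33 (SE) (adjusted p = 0.50). It also had the smallest p over both days, at 0.76 ± 0.24 (SE) (adjusted p = 0.46). Its day 7 values, 0.8398, 1.28 and 1.35 against 1.497, 1.67 and 1.47 CPM, did not overlap, whereas on day 3 they did, by 1 R26WT mouse. None of these passed the threshold. The farthest Satb1 windows, 384 kb upstream and 321 kb downstream, averaged 1.88 and 0.961 CPM.

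Bach2 was most accessible at its start site, where the mice with Foxp3 degraded were lower on day 3 without passing the test. The window (chr4:32238565-32238766, centre 252 bases inside the gene) had 29.6, 30.03, 31.7 and 35.8 CPM in R26WT and 29.5, 29.1, 23.8 and 24.9 in R26TIR1(F74G) mice on day 3, with no overlap. On day 7, 31.01, 36.98 and 26.99 in R26WT and 28.5, 26.8 and 28.3 in R26TIR1(F74G) mice overlapped. The log2 fold change was -0.25 ± 0.12 (SE) on day 3 and -0.20 ± 0.12 (SE) on day 7 (adjusted p = 0.63 and adjusted p = 0.88), with 95% intervals of the fold from 0.71 to 0.99 and from 0.73 to 1.03. The next windows in level lay 89.1 kb upstream in no gene (chr4:32149215-32149416, 23.0 CPM) and 0.93 kb inside the gene (chr4:32239243-32239444, 22.3 CPM). The distal one had 21.04, 21.5, 25.5 and 27.7 CPM in R26WT and 25.7, 26.7, 18.9 and 18.98 in R26TIR1(F74G) mice on day 3, and 22.8, 24.4 and 16.9 and 24.2, 23.8 and 24.2 on day 7. Its lowest value was in the shallow library of R26WT replicate 3 on day 7, and the genotypes overlapped on each day.

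The Bach2 window with the smallest p on day 7 lay 99.2 kb upstream (chr4:32139136-32139337). It had 1.62, 1.45 and 2.85 CPM in R26WT and 0.802, 0.894 and 0.759 in R26TIR1(F74G) mice on day 7, and 0.952, 0.926, 1.16 and 0.708 and 1.08, 1.29, 1.19 and 2.25 on day 3. The groups were apart on day 7 and overlapped on day 3, where the R26TIR1(F74G) mice held the higher values. The log2 fold change on day 7 was -1.16 ± 0.35 (SE) (adjusted p = 0.63), and its difference from that of day 3 was -1.83 ± 0.49 (SE) (adjusted p = 0.53), also the smallest p of the interaction. A neighbouring window 231 bases on (chr4:32139367-32139568) had the smallest p between the days in R26TIR1(F74G) mice, with 0.5395, 1.02, 1.71 and 1.69 CPM on day 3 and 0.321, 0.536 and 0.556 on day 7 (-1.45 ± 0.43 (SE), adjusted p = 0.37). The smallest p on day 3 came from a window 157 kb inside the gene (chr4:32394893-32395094), with 6.84, 5.89, 5.05 and 6.02 CPM in R26WT and 4.68, 4.18, 2.98 and 4.102 in R26TIR1(F74G) mice. Every R26TIR1(F74G) mouse was below every R26WT mouse there, and the log2 fold change was -0.60 ± 0.18 (SE) on day 3 (adjusted p = 0.46) and -0.42 ± 0.13 (SE) over both days (adjusted p = 0.48). None of these differences passed the threshold. The farthest Bach2 windows, 112 kb upstream and 175 kb downstream, averaged 1.71 and 0.920 CPM.

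Bcl11b had 1 strong window, at its start site (chr12:108004007-108004208, centre 38 bases inside the gene). It had 21.9, 22.9, 23.2 and 27.9 CPM in R26WT and 26.1, 18.2, 19.8 and 19.9 in R26TIR1(F74G) mice on day 3. On day 7 it had 25.6, 25.7 and 26.1 in R26WT and 24.97, 23.1 and 24.1 in R26TIR1(F74G) mice. The groups overlapped on day 3 and were narrowly apart on day 7, by 0.61 CPM. The log2 fold change was -0.22 ± 0.13 (SE) on day 3 and -0.10 ± 0.12 (SE) on day 7 (adjusted p = 0.71 and adjusted p = 0.95), with 95% intervals of the fold from 0.72 to 1.02 and from 0.79 to 1.10. The RefSeq promoter of Bcl11b lies farther in (start site 108003414) and held no window, and the nearest, centred 407 bases away, had 7.099 CPM. The next strongest windows lay 10.9 kb (chr12:107993103-107993304, 11.7 to 16.3 CPM in all mice) and 82.8 kb (chr12:107921200-107921401, 11.1 to 18.9 CPM) inside the gene.

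On day 7 the smallest p among the Bcl11b windows belonged to one 73.4 kb inside the gene (chr12:107930645-107930846). It had 5.75, 5.76 and 5.55 CPM in R26WT and 4.01, 3.52 and 4.55 in R26TIR1(F74G) mice on day 7, and 6.06, 5.42, 6.15 and 5.72 and 6.83, 4.83, 4.84 and 6.68 on day 3. The R26TIR1(F74G) mice of day 7 were the lowest group in this window and overlapped no other. The log2 fold change was -0.50 ± 0.18 (SE) between the genotypes on day 7 (adjusted p = 0.74) and -0.48 ± 0.19 (SE) between the days in R26TIR1(F74G) mice (adjusted p = 0.59), the smallest p of both comparisons. These comparisons share the R26TIR1(F74G) mice of day 7, so the results are not independent. The window was picked by them, and the low place of that group follows largely from this choice. On day 3 the smallest p came from a window 189 kb downstream, outside the gene (chr12:107814979-107815180), with 3.896, 5.23, 5.12 and 5.49 CPM in R26WT and 3.24, 3.11, 3.73 and 2.57 in R26TIR1(F74G) mice. All R26TIR1(F74G) mice were below all R26WT mice, at a log2 fold change of -0.65 ± 0.19 (SE) (adjusted p = 0.45), and on day 7 the groups overlapped (4.33, 3.896 and 4.498 against 4.599, 3.28 and 4.502 CPM). Over both days the smallest p was that of a window 42.03 kb inside the gene (chr12:107962016-107962217, -0.58 ± 0.20 (SE), adjusted p = 0.56). Again no window passed the threshold. The farthest, 37.6 kb upstream and 445 kb downstream, averaged 1.86 and 1.33 CPM.

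Sox4 had its highest window over the start site (chr13:28953683-28953884, centre 84 bases upstream), which lies wholly in the promoter printed above. The CPM were 22.7, 27.9, 28.8 and 32.2 in R26WT and 25.5, 29.6, 30.3 and 32.98 in R26TIR1(F74G) mice on day 3. On day 7 they were 29.4, 32.9 and 29.99 and 27.4, 30.1 and 32.9. The groups overlapped on both days, and the lowest value was that of R26WT replicate 1 on day 3. The log2 fold change was 0.09 ± 0.12 (SE) on day 3 and -0.03 ± 0.12 (SE) on day 7 (adjusted p = 0.91 and adjusted p = 0.99), with 95% intervals of the fold from 0.90 to 1.26 and from 0.83 to 1.16. The second highest window lay 402 kb downstream in no gene (chr13:28551672-28551873). It had 18.4, 23.7, 26.98 and 26.3 CPM in R26WT and 29.3, 20.9, 26.2 and 23.9 in R26TIR1(F74G) mice on day 3, and 27.00, 24.1 and 24.4 and 21.2, 23.8 and 23.4 on day 7. The genotypes overlapped on day 3 and not on day 7, where the R26TIR1(F74G) mice had the lower values (-0.15 ± 0.12 (SE), adjusted p = 0.92). This window, 24.3 CPM on average, was 0.823 times as accessible as that at the start site. A window only 0.753 kb farther, the farthest downstream assigned to Sox4, averaged 1.32 CPM. Both were assigned by distance alone and lie near midway to the start site of Prl5a1, 811 kb from that of Sox4. Whether they act on Sox4 was not tested. The third in level lay 278 bases inside the gene (chr13:28953321-28953522, 14.8 to 19.1 CPM in all mice).

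The Sox4 windows with the smallest p on each day lay upstream within the neighbouring gene Cdkal1 and were weak. On day 7 it was a window 257 kb away (chr13:29210241-29210442), with 1.62, 2.33 and 1.95 CPM in R26WT and 0.695, 1.25 and 1.42 in R26TIR1(F74G) mice, which did not overlap (-0.81 ± 0.32 (SE), adjusted p = 0.78). On day 3 the R26WT mice had 1.47, 1.46, 1.43 and 1.12 and the R26TIR1(F74G) mice 1.26, 2.15, 1.49 and 1.21 CPM there and overlapped. The smallest p on day 3 was found 301 kb upstream (chr13:29254517-29254718), with 0.952, 0.331, 0.273 and 0.826 CPM in R26WT and 2.88, 0.697, 2.31 and 0.885 in R26TIR1(F74G) mice (1.38 ± 0.43 (SE), adjusted p = 0.47). The highest value was that of the shallowest library, and the groups overlapped. The same window had the smallest p between the days in R26TIR1(F74G) mice, 0.374, 0.536 and 0.304 CPM on day 7, at -1.92 ± 0.47 (SE) (adjusted p = 0.23), and the smallest p of the interaction (-2.05 ± 0.74 (SE), adjusted p = 0.71). Its mean count was 10.8 per library. It fell under the count filter on day 7 and between the days in R26WT mice, so it was not tested there. Group means were 0.596 (R26WT) and 1.69 CPM (R26TIR1(F74G)) on day 3, and 0.719 and 0.405 on day 7. The window entered the other fits through the high day 3 values of R26TIR1(F74G) mice, which these results share. Over both days the smallest p was that of a window 347 kb downstream (chr13:28606985-28607186, 0.47 ± 0.20 (SE), adjusted p = 0.66). The farthest upstream window, 433 kb away in Cdkal1, averaged 0.820 CPM.

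**Figure D3:**
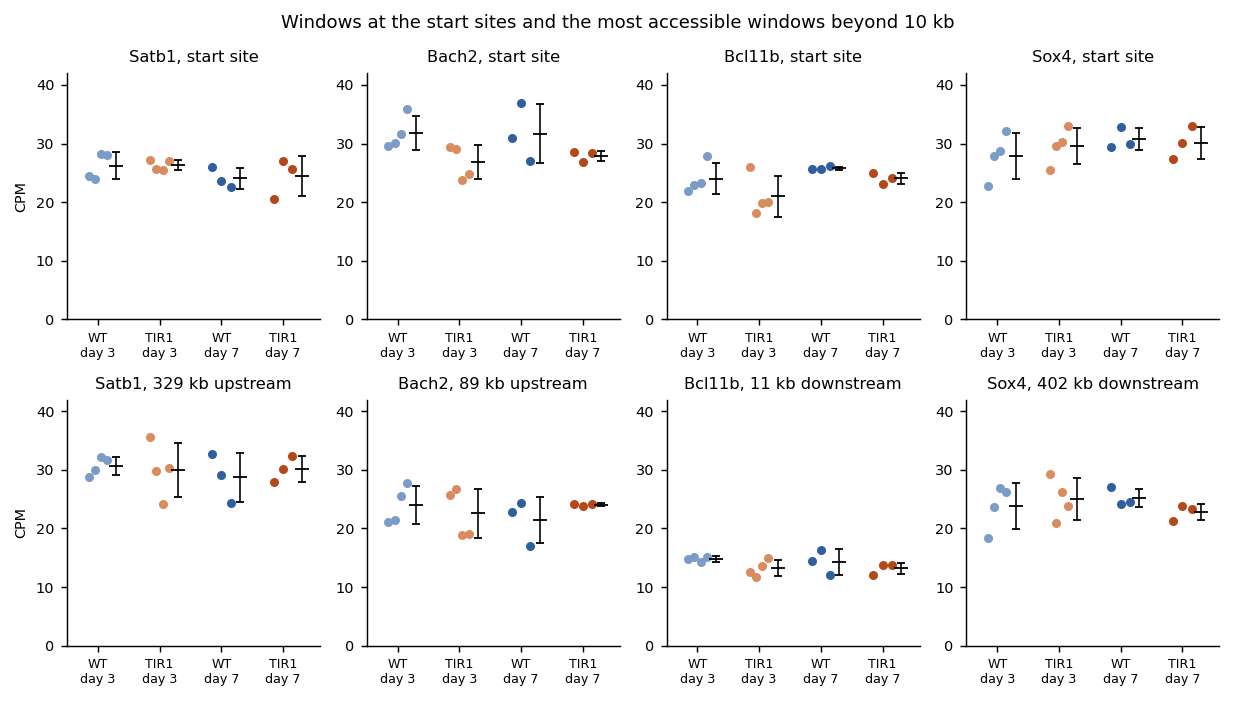
CPM in each mouse (points), with the mean and SD of each group (black bars), at the window nearest the start site (top) and at the highest window more than 10 kb away (bottom) of each gene, on axes from 0. The windows 329 kb upstream of Satb1 and 402 kb downstream of Sox4 reach 29.9 and 24.3 CPM on average, and the genotypes of a day overlap in each panel except at the Bach2 start site on day 3 and, on day 7, at the Bcl11b start site and the distal Sox4 window.

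None of the windows of the 4 genes passed an adjusted p of 0.05 between the genotypes. At day 7, 0 of 791 windows tested were called against 11 of all 237811 (0.00463%). On day 3, 0 of 785 were called against 0 of 235515 (0.0%), and over both days 0 of 796 against 27 of 240778 (0.0112%). DESeq2 called 0 windows of the 4 genes in each of the 3 comparisons, against 0 of all windows on either day (0.0%). Over both days it gave an adjusted p to 30712 windows, 73 of them of the 4 genes, and called 155 (0.505%). The smallest adjusted p of any of these windows was 0.63 at day 7, 0.45 at day 3 and 0.46 for both days together. At the edgeR rates fewer than 1 call would fall on 796 windows, and at the DESeq2 rate over both days fewer than 1 on 73. A count of 0 therefore does not set the 4 genes apart from others.

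At an unadjusted p under 0.05, 5.31%, 4.08% and 5.402% of the windows of the 4 genes passed on day 7, day 3 and for both days together, against 5.96%, 7.55% and 6.73% of all windows, and these shares were not tested. On day 7, 17 were higher and 25 lower in R26TIR1(F74G) mice, 5.31% of 791, against 2.77% higher and 3.2% lower of all windows. On day 3, 12 were higher and 20 lower, 4.08% of 785, against 3.92% and 3.63%. Over both days, 15 were higher and 28 lower, 5.402% of 796, against 3.16% and 3.57%. By gene, the higher and lower windows on day 3 numbered 3 and 4 for Satb1, 2 and 6 for Bach2, 0 and 10 for Bcl11b and 7 and 0 for Sox4. On day 7 they numbered 5 and 9, 7 and 7, 3 and 5, and 2 and 4. Over both days they numbered 10 and 10, 1 and 7, 1 and 11, and 3 and 0. As shares of the windows tested per gene, these were 2.64%, 4.19%, 7.87% and 3.47% on day 3, against 7.55% of all windows. On day 7 the shares were 5.19%, 7.25%, 6.20% and 3.02%, against 5.96%. Over both days they were 7.38%, 4.15%, 9.30% and 1.48%, against 6.73%. The directions by gene were not tested as counts. Windows whose genotypes did not overlap numbered 98 of 791 (12.4%) on day 7, 23 of 785 (2.93%) on day 3 and 0 of 796 over both days, where all windows gave 11.8%, 4.1% and 0.116%.

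The medians of the log2 fold changes lay near 0. On day 7 they were -0.01 for Satb1, 0.04 for Bach2, 0.00 for Bcl11b and 0.00 for Sox4, against -0.01 for all windows. On day 3 they were 0.01, -0.06, -0.12 and 0.13 in the same order, against 0.01 for all windows, and 34.6% of the Bcl11b windows and 66.8% of the Sox4 windows had a positive value. Over both days they were 0.00, -0.03, -0.05 and 0.05, against 0.00. In windows averaging at least 50 counts, the day 3 medians were -0.05 (78 windows), -0.10 (86), -0.15 (37) and 0.03 (37) against -0.08 for all 66750 such windows, and the day 7 medians were 0.03, 0.04, -0.09 and -0.03 against 0.03. Among those well-counted windows, the greatest absolute log2 fold change of any of the 4 genes was 0.50 on day 7 and 0.65 on day 3, both in Bcl11b, where the greatest of all windows were 1.94 and 1.14. The pooled SD between mice of a group in these windows was 0.21 to 0.23 on the log2 scale for each gene (median over windows) and 0.20 for all.

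**Figure D4:**
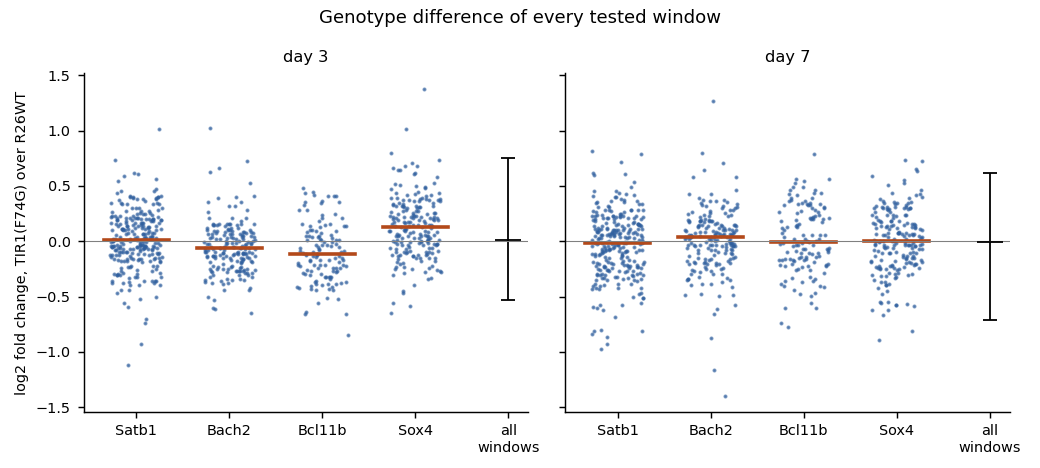
Log2 fold change of R26TIR1(F74G) over R26WT mice for each tested window (points) of each gene on day 3 and day 7, with the median over windows (orange bar), beside the median and central 95% range of all windows (black). On day 3 the medians are -0.12 for Bcl11b and 0.13 for Sox4, on day 7 the 4 medians lie between -0.01 and 0.04, and the points fill the range of all windows.

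The day 3 values of all genes moved with distance from the start site, which touches the comparison of genes with so many distant windows. Over all windows, the median log2 fold change on day 3 was -0.06 within 1 kb of a start site, -0.02 from 1 to 10 kb, 0.02 from 10 to 100 kb and 0.14 from 100 kb to 1 Mb, and on day 7 it was 0.03, -0.02, -0.02 and -0.02. The 155 Sox4 windows beyond 100 kb had a day 3 median of 0.09, below that of all windows at that distance, and the 36 at 10 to 100 kb had 0.22, above it. For Bcl11b the medians of day 3 were -0.14 (3 windows), -0.27 (6), -0.10 (53) and -0.10 (67) from near to far, so they lay below the median of all windows at each distance. For Bach2 they were -0.11, -0.10, -0.07 and -0.06, also below at each distance, and for Satb1 -0.02, -0.03, 0.00 and 0.04. On day 7 the Bcl11b medians were -0.10, -0.09, 0.06 and -0.01, and the Bach2 medians 0.09, 0.05, 0.04 and -0.02. These medians carry no test, and neighbouring windows share fragments, with 466 of the 796 windows overlapping another window.

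**Figure D5:**
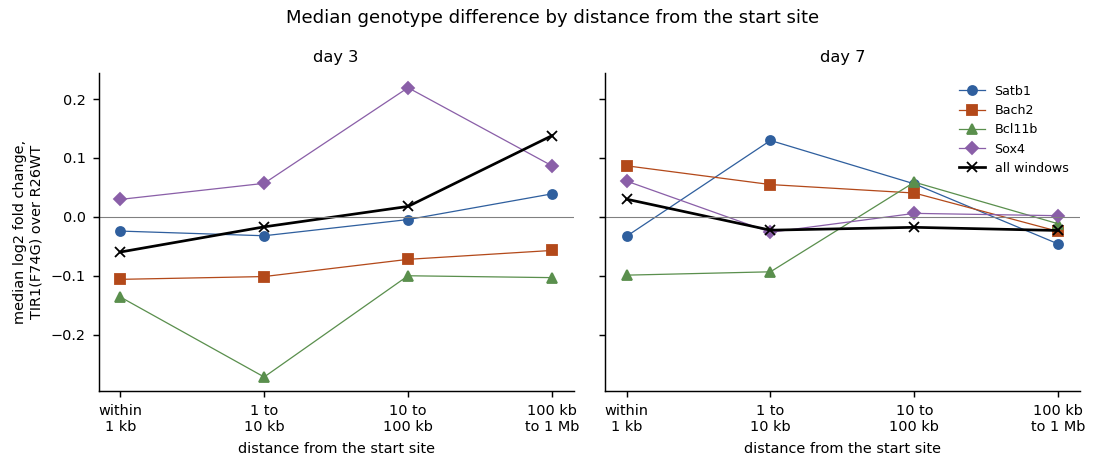
Median log2 fold change of R26TIR1(F74G) over R26WT mice by distance from the start site, for each gene and for all windows, on day 3 (left) and day 7 (right). On day 3 the line of all windows goes from -0.06 near start sites to 0.14 beyond 100 kb, with Bcl11b and Bach2 below it at each distance.

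Between the days no window of the 4 genes passed the threshold either. In R26WT mice, 0 of 783 were called against 7 of 232991 (0.003%), and 41 had an unadjusted p under 0.05 (5.24%, all windows 5.25%). In R26TIR1(F74G) mice, 0 of 791 were called against 0 of 239163 (0.0%), and 36 had an unadjusted p under 0.05 (4.55%, all windows 6.96%). For the interaction of day and genotype, 0 of 796 were called against 0 of 240778 (0.0%), with 31 at an unadjusted p under 0.05 (3.89%, all windows 6.32%). DESeq2 called 0 windows of these genes in each of the 3, against 0 (R26WT mice), 2 (R26TIR1(F74G) mice, 0.000836%) and 0 (interaction) of all. When day 3 replicate 2 was left out of the R26TIR1(F74G) comparison, 1 of 790 was called, the Sox4 window 301 kb upstream, against 364 of 237414 (0.153%). That window passed the count filter through its high day 3 values. The difference of the genotype effects between day 7 and day 3 had a median of -0.02 for Satb1, 0.09 for Bach2, 0.12 for Bcl11b and -0.09 for Sox4, against -0.01 for all windows. For Satb1 and Bcl11b the smallest p of the interaction belonged to windows 118.4 kb downstream (chr17:51714804-51715005, -1.54 ± 0.52 (SE), adjusted p = 0.68) and 84.3 kb inside the gene (chr12:107919770-107919971, 0.93 ± 0.35 (SE), adjusted p = 0.73). The genotype comparisons of the 2 days share no mice, whereas the interaction uses the mice of both.

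Between the days, the smallest p of Satb1 windows in R26WT mice belonged to one 55.3 kb inside the gene (chr17:51777939-51778140), with 2.597, 2.45, 3.41 and 2.71 CPM on day 3 and 5.36, 4.83 and 3.899 on day 7 (0.78 ± 0.20 (SE), adjusted p = 0.52). In R26TIR1(F74G) mice it was one 1.89 kb inside the gene (chr17:51831304-51831505), with 2.698, 4.61, 2.98 and 3.94 CPM on day 3 and 5.88, 5.54 and 5.82 on day 7 (0.63 ± 0.19 (SE), adjusted p = 0.38). The days did not overlap in either case, and the later day was higher. For Bach2, Bcl11b and Sox4 the smallest p in R26WT mice gave -1.47 ± 0.49 (SE), -0.51 ± 0.21 (SE) and 0.46 ± 0.20 (SE), with adjusted p = 0.84, 0.92 and 0.93. The median change from day 3 to day 7 was 0.05 for Satb1, -0.05 for Bach2, -0.10 for Bcl11b and 0.00 for Sox4 in R26WT mice, and 0.02, 0.06, 0.01 and -0.10 in R26TIR1(F74G) mice. The days are different sets of mice, and the part of other differences between these sets was not tested.

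Lists of related genes behaved likewise. Of the family relatives, Bach1 (68 windows, start-site window 45.2 CPM) was more accessible at its start site than Bach2, Bcl11a (29 windows, 4.42 CPM) was less accessible than Bcl11b, Sox12 had 13 windows and Sox11 had no window. The 18 other T cell identity factors, which include Tcf7, Lef1, Foxo1, Runx1 and Tox, gave 0 calls in 1985 windows on day 7 and 1965 on day 3, with medians of -0.02 on both days. Over both days the smallest adjusted p on this list was 0.083, in Runx3. The 8 genes listed as targets of these factors, which include Il2ra, Ctla4, Ikzf2, Prdm1 and Id2, gave 0 calls in 674 and 675 windows, with medians of -0.02 and 0.04. In the latter lists 3.71% to 5.95% of windows had an unadjusted p under 0.05 on either day, where all windows gave 5.96% on day 7 and 7.55% on day 3.

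The genes whose mean log2 accessibility moved most like each of the 4 across the 14 libraries were, among 3408 genes with at least 20 windows, Ivns1abp, Kif2c and Sertad2 for Satb1 (Pearson's r 0.76, 0.74 and 0.74), Yy1, Irf2bpl and Cep19 for Bach2 (0.88, 0.88 and 0.85), Mkln1, Sbk1 and Gimap9 for Bcl11b (0.94, 0.87 and 0.86) and Ifne, Prok2 and Tcf4 for Sox4 (0.90, 0.90 and 0.90). Within the 4, Bach2 and Bcl11b moved together (0.69) and Bach2 and Sox4 in opposite directions (-0.75). These are descriptions over 14 libraries, picked as the highest of many, and the points share depth and composition, with low-count windows weighing on the log scale.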

How the data were processed

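The authors aligned ATAC-seq reads to mm10 with Bowtie2, called peaks with MACS2, merged the reproducible peaks and counted reads per window with featureCounts, and the deposited values are these raw counts, 1 column per mouse. DESeq2 is named in the submitters' processing notes too, and the deposited counts are not scaled by it. The tools here were R 4.3.3 with edgeR 4.0.16, DESeq2 1.42.0 and limma 3.58.1, and Python 3.11.15.

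Windows were assigned to start sites from RefSeq on GRCm38. The main test was the quasi-likelihood F-test of edgeR, after TMM scaling. A window entered when the mice compared averaged at least 10 counts, p-values were adjusted by Benjamini-Hochberg over all windows tested, and the threshold was 0.05. Standard errors follow from the fold change and its test statistic. TMM factors for CPM were computed across the 14 libraries, and the pseudocount for log2 levels was 0.5 CPM. Mice were separate animals by their names, so the p-values measure the spread between mice. Reads were amplified by PCR with no molecular identifiers and are not independent molecules. The members and gene lists were chosen with earlier results of these data known. The pooled result of the list of family relatives is not reported here.

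The windows named are, for each gene, the one nearest the start site, the 3 with the highest mean CPM, the one with the smallest p in each of the 6 comparisons, any past the threshold and the farthest upstream and downstream. The other Satb1 start sites were added for their sequences after the values were seen. Alternatives were DESeq2 as the tool, scaling by DESeq2 size factors, by total counts or by loess offsets, no filter or a filter at 50 counts, replicate number as a block, mouse name prefix, 1 fit of all 14 libraries, each mouse left out in turn and windows within 100 kb. Start sites of curated transcripts and windows beyond 10 kb were added after seeing the data. In simulated counts for the day 7 design (237811 windows), 19 of 67 windows changed 1.5-fold, 55 of 67 changed 2-fold and 65 of 66 changed 3-fold were found. For day 3 (235515 windows) these were 22, 64 and 66 of the same numbers. Changes were placed only in windows averaging at least 50 counts in the mice compared, so these rates do not describe weaker windows. Of the 796 windows of the 4 genes, 558 averaged under 50 counts over the 14 libraries.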

Additional observations from a re-analysis of the deposited data

Results flagged for a closer look

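In 90 groups of 4 mice (45 values on day 3 in each genotype), 2 had a mouse far from the other 3, where chance alone gives about 1 in 20 groups. In the Sox4 window 257 kb upstream of the start site, R26WT replicate 4 on day 3 had 1.12 CPM and the other 3 mice had 1.43, 1.46 and 1.47. In the mean over all Sox4 windows, R26WT replicate 1 on day 3 had 2.37 CPM per window and the others 2.62, 2.64 and 2.65. The same mouse was the lowest of its group at the Sox4 start site (22.7 CPM against 27.9, 28.8 and 32.2) and at the window 402 kb downstream (18.4 CPM against 23.7, 26.3 and 27.0). Its library held 11221502 counts, the fewest of its group.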

How the results depend on the processing

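Over the alternatives, 120 counts of called windows of the 4 genes remained at 0. The exception was between the days in R26TIR1(F74G) mice, where leaving out single mice gave 0 to 1 calls, the 1 being the Sox4 window 301 kb upstream without replicate 2 of day 3 (log2 fold changes of -2.23 to -1.61 over the mice left out, lowest adjusted p = 0.023). That fit called 364 of all 237414 windows (0.153%), and the Sox4 window passed the count filter through its high day 3 values. Of 496 medians, 470 moved by less than the spread between mice, and the cause was not tested for the others. With a filter at 50 counts, the Bcl11b medians were -0.11 (genotype, day 7), -0.057 (genotype, day 3), -0.037 (interaction), -0.038 (days in R26WT mice) and -0.066 (days in R26TIR1(F74G) mice), and the Satb1 median of the interaction was -0.062. With total counts, the Satb1 medians were 0.067 (day 3), -0.079 (interaction) and -0.023 (days in R26TIR1(F74G) mice), and the Bcl11b medians -0.064 (day 3) and 0.070 (interaction). Within 100 kb, the Satb1 medians were 0.055 (day 7) and 0.11 (days in R26TIR1(F74G) mice) and the Sox4 medians -0.19 (interaction) and 0.086 (days in R26WT mice). With the name prefix in the fit, the Sox4 median on day 7 was -0.081. With single mice left out, medians ranged from -0.024 to 0.089 (Bach2, day 7), 0.074 to 0.17 (Bach2, interaction), -0.050 to 0.081 (Bcl11b, day 7), 0.084 to 0.18 (Bcl11b, interaction), -0.13 to -0.048 (Bcl11b, days in R26WT mice), -0.048 to 0.018 (Bcl11b, days in R26TIR1(F74G) mice), -0.028 to 0.044 (Satb1, day 3) and -0.081 to 0.041 (Sox4, day 7). At the start sites, 13 of 128 fold changes changed sign, all near 0. For Satb1 they were -0.016 (filter at 50 counts) and -0.022 (prefix) on day 7 and -0.014 (prefix) on day 3. The others came with single mice left out. The Satb1 fold changes then ranged from -0.066 to 0.12 on day 7, where 4 of 6 changed sign. On day 3 they ranged from -0.039 to 0.037, where 4 of 8 did. Those of Sox4 ranged from -0.098 to 0.035 on day 7, where 2 of 6 did.

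The replicate numbers did not pair the mice (correlations of deviations between -0.073 and 0.066 for the 7 pairs). With the replicate number as a block, 0 windows of the 4 genes were called in each of the 6 comparisons, against 52 (day 7), 4 (day 3), 14 (both days), 1 (interaction), 16 (days in R26WT mice) and 62 (days in R26TIR1(F74G) mice) of all windows. The alternative of all 14 libraries for the interaction is the fit already used. Depth limits the distant windows most, since 558 of the 796 averaged under 50 counts.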
